A study of Camelus dromedarius with 4 samples.

Results

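The blood-brain barrier of the dromedary supraoptic nucleus was examined through 9 genes. They comprised the tight junction genes CLDN5, OCLN and TJP1, the endothelial adhesion genes CDH5 and PECAM1, the efflux transporter genes ABCB1 and ABCG2, and the SLC2A1 and MFSD2A genes, whose products carry glucose and lipid across the capillary wall. The 9 genes were chosen by symbol, for their known place in the barrier, and all 9 were among the 16053 gene symbols for which the deposited table holds a mean level in summer and in winter.

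The supraoptic nucleus is a hypothalamic nucleus of large, or magnocellular, neurones that make vasopressin and oxytocin and send them to the posterior pituitary. Total RNA of the nucleus, cleared of ribosomal RNA, was sequenced in 2 winter and 2 summer libraries to ask how gene expression differs with season in the Algerian Sahara. All animals were healthy, hydrated adult male camels of the Tergui breed, matched for age. Winter animals were slaughtered at El Oued and summer animals at Ouargla, so that season and place cannot be told apart. The labels number the libraries within a season without naming animals, and p-values therefore measure the spread between these samples, part of which may be technical.

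Capillaries of most of the brain are lined by endothelial cells that are sealed to each other by tight and adherens junctions. Claudins and occludin close the cleft between neighbouring cells, scaffold proteins such as the TJP1 product tie them to the cytoskeleton, and the cadherin encoded by CDH5 holds the membranes together. Nutrients cross through dedicated carriers, efflux pumps return lipophilic compounds to the blood, and traffic in vesicles is kept low. The supraoptic nucleus is among the most densely vascularised regions of the hypothalamus.

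Levels are given as normalized reads, that is, reads divided by the DESeq size factor of the library. No gene lengths were at hand, so levels were compared between seasons and libraries but not between genes. The table gives only the mean of each season. Each mean is a sum of whole reads, and the reads of both libraries could be solved from it with a single solution for 6 of the 9 genes, namely CLDN5, OCLN, CDH5, PECAM1, ABCB1 and MFSD2A. The solved libraries are known only by their size factors (winter 1.325 and 0.9456, summer 0.9222 and 0.8773), and are called here the larger and the smaller library of a season. A count of 0 allows up to 3 reads, which is 2.26 to 3.42 normalized reads depending on the library and covers counting error only, and every solved value of the 9 genes lay above it. In the deposited count files, 4379162 to 6902037 reads per library fell on gene models.

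The larger summer library stood apart by its symbols without reads. It held 0 reads for 454 symbols that had at least 10 reads in the smaller summer library, against 11 symbols the other way round, and 4 and 18 symbols in the larger and smaller winter libraries. The biological coefficient of variation was 0.603 between the summer libraries and 0.291 between the winter libraries. Season differences of the 6 resolved barrier genes are therefore also given without the larger summer library. So are those of the other genes and lists whose fit is discussed. Leaving this library out moved the median log2 fold change of the fitted symbols from -0.11 to -0.16. Leaving out the smaller summer library instead moved it to 0.16. The spread between the summer libraries does not show which of them is the unusual one. Neuronal and vascular markers of the labelled tissue were present, with season means of 592 (summer) and 621 (winter) normalized reads for the oxytocin gene OXT, and 367 and 444 for the endothelial marker VWF.

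By the authors' season means, 7 of the 9 barrier genes were lower in winter than in summer and 2, TJP1 and CDH5, were higher. On the log2 scale, winter over summer with a pseudocount of 1, the ratios ran from -0.84 for MFSD2A to 0.88 for CDH5, with a median of -0.51. Over all 13808 symbols whose mean reached 10 in summer or winter, the median was -0.04, the quartiles were -0.31 and 0.26, and 53.8% of symbols were below 0. None of the 9 genes had season means more than 2-fold apart, against 6.42% of all symbols. In bulk tissue, a lower share of endothelial cells and less RNA of a gene per cell cannot be told apart.

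**Figure D1:**
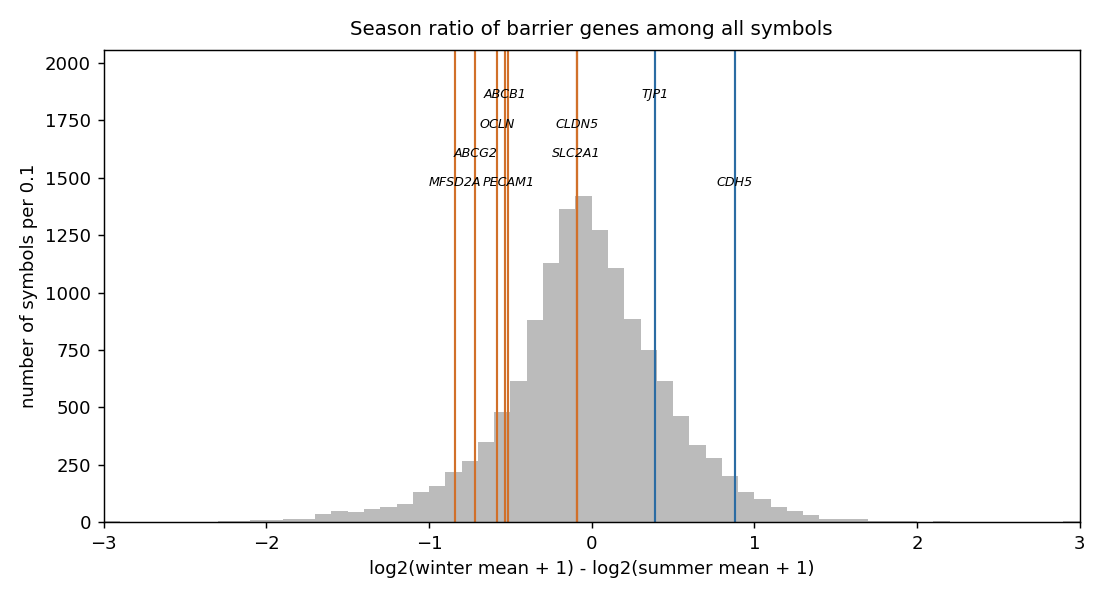
Distribution of the season ratio, as log2 of the winter mean plus 1 minus log2 of the summer mean plus 1, over the 13808 symbols whose mean reached 10 in summer or winter (grey bars, number of symbols per 0.1), with each barrier gene as a vertical line (orange below 0, blue above 0). MFSD2A at -0.84, ABCG2 at -0.72, OCLN at -0.58, ABCB1 at -0.53 and PECAM1 at -0.51 lie in the left flank, CLDN5 and SLC2A1 at -0.09 near the centre, and CDH5 at 0.88 in the right tail.

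None of the season differences passed a test in the fit to all 4 libraries. Of the 6 genes with a single solution, 0 had an unadjusted p under 0.05 in edgeR's quasi-likelihood test, against 1.99% of the 7641 symbols fitted, and 0 met the thresholds of the study (an unadjusted p under 0.05 and more than 2-fold), against 1.68%. The Benjamini-Hochberg adjusted p was under 0.05 for 0% of the symbols fitted. By edgeR's exact test and by DESeq2, 0 of the 6 genes likewise had an unadjusted p under 0.05. Both winter values lay below both summer values for 4 of the 6 genes, against 17.2% of the symbols fitted, and above them for 1 gene, against 13.3%. For a single gene, the smallest two-sided exact permutation p that 2 libraries against 2 can give is 0.333.

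Of the 128 symbols that met the study's thresholds, 50.8% were higher in winter. This split moved to 72.6% of 168 symbols when libraries were scaled by their total counts, and to 93.5% of 215 when they were scaled to endothelial genes. Both scalings shifted all symbols towards higher winter values, and CLDN5, whose value was nearest 0, crossed it.

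**Figure D2:**
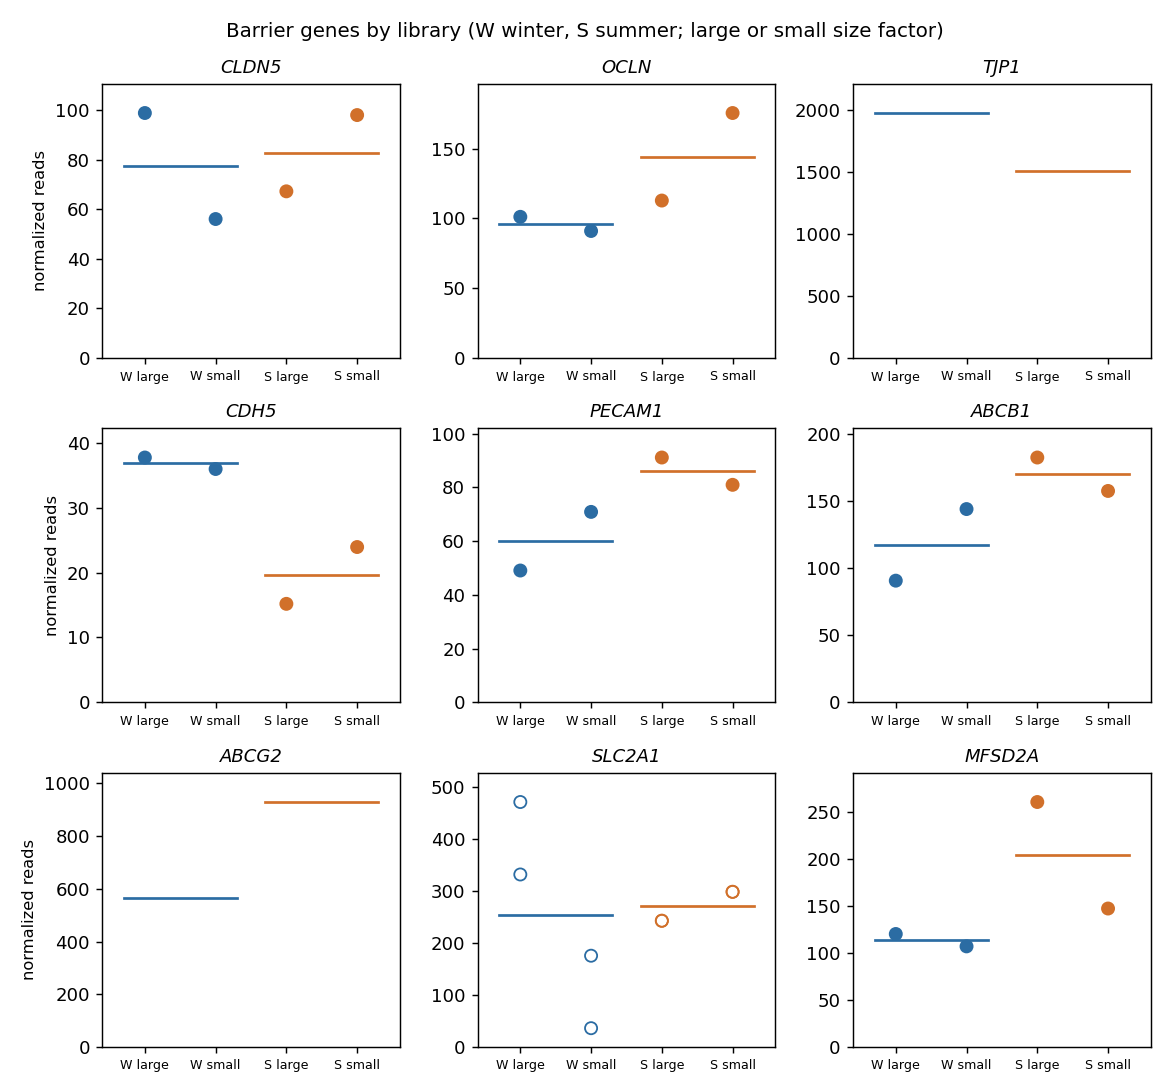
Normalized reads of each barrier gene in each library (W winter in blue, S summer in orange, large and small by size factor), with horizontal lines at the authors' season means. Filled points are single solutions, and open points for SLC2A1 are both solutions of its winter mean with the single solution of its summer mean. TJP1 and ABCG2 are shown by their season means alone, 1974 and 566 in winter against 1509 and 930 in summer.

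Among the tight junction genes, OCLN was lower in winter, CLDN5 was at a similar mean in both seasons with a wide spread inside each, and TJP1 had a higher winter mean. CLDN5 encodes the claudin that dominates the tight junctions of brain capillaries. It had 98.9 and 56.1 normalized reads in the larger and smaller winter libraries and 67.2 and 98.0 in the larger and smaller summer libraries, from 131, 53, 62 and 86 reads. The groups overlapped, with the high values in the larger winter and the smaller summer library. The season means were 77.5 ± 30.3 in winter and 82.6 ± 21.8 in summer (SD, n = 2). The fitted log2 fold change, winter over summer, was -0.08 with a standard error of 0.42 and a 95% interval from -1.07 to 0.91. With edgeR's quasi-likelihood test the adjusted p was 0.989, and the larger of the 2 winter values was 1.76 times the smaller, a wider gap than that between the seasons.

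The sign of the CLDN5 difference was not stable. The log2 fold change became 0.02 with scaling by total counts, 0.18 with scaling to endothelial genes, 0.26 without the smaller winter library and 0.21 without the smaller summer library. Without the larger summer library it was -0.33. Among markers of astrocyte endfeet, the processes that wrap the capillaries, ALDH1L1, SLC1A3 and GJB6 were high in the same libraries as CLDN5, and AQP4, the water channel that defines endfeet, was not. The 4 such genes with single solutions (of 11 listed) summed to 466 and 210 normalized reads in the larger and smaller winter libraries and to 168 and 407 in the larger and smaller summer libraries. AQP4 had 6.79 and 3.17 in the larger and smaller winter libraries and 9.76 and 10.3 in the larger and smaller summer libraries, close to the limit that a count of 0 allows. None of the 11 was listed at 0, and the part of endfeet in the CLDN5 values was not tested.

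OCLN encodes occludin, a membrane-spanning protein of the tight junction. It had 101 and 91.0 normalized reads in the larger and smaller winter libraries, against 113 and 176 in the larger and smaller summer libraries. The winter values were both below the summer values, though the larger winter and the larger summer library were close to each other. The summer mean was 1.501 times the winter mean, at 144 ± 44.4 against 96.0 ± 7.19 (SD, n = 2). The log2 fold change was -0.58 with a standard error of 0.36 and a 95% interval from -1.42 to 0.26 (edgeR's quasi-likelihood test, adjusted p = 0.982). Without the larger summer library it was -0.87, and without the smaller summer library, which held the highest value, it was -0.23.

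TJP1 encodes ZO-1, the scaffold that binds claudins and occludin from inside the cell, and is made in many cell types besides endothelium. Its mean was 1974 normalized reads in winter and 1509 in summer, 1.31 times higher in winter, with a log2 ratio of 0.39 that exceeded those of 82.2% of all symbols. At this level 102 pairs of whole reads gave the winter mean and 51 the summer mean. Its libraries were not resolved and no test was made.

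Other tight junction genes differed in both directions by their means, without passing the test. Of 14 listed partners whose mean reached 10 in summer or winter, 8 had a lower and 6 a higher winter mean, with a median log2 ratio of -0.13. In edgeR's quasi-likelihood test 0 of the 7 with single solutions had an unadjusted p under 0.05. Their median fitted log2 fold change was -0.56. Without the larger summer library it was -0.32, with 5 genes lower and 2 higher in winter. PARD3, which encodes a polarity protein, had the highest mean of the listed partners, with 1337 normalized reads in winter and 1262 in summer.

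Of the endothelial adhesion genes, CDH5 was higher in winter and PECAM1 lower. CDH5 encodes VE-cadherin, the adhesion molecule of endothelial adherens junctions. It had 37.7 and 36.0 normalized reads in the larger and smaller winter libraries and 15.2 and 23.9 in the larger and smaller summer libraries. Both winter values lay above both summer values, and CDH5 was alone among the 6 resolved genes in this order. The counts behind these values were low, at 50, 34, 14 and 21 reads.

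The winter mean of CDH5 was 1.88 times the summer mean, at 36.8 ± 1.25 against 19.6 ± 6.19 (SD, n = 2), and its log2 ratio of 0.88 exceeded those of 96.4% of all symbols. The fitted log2 fold change was 0.92 with a standard error of 0.59 and a 95% interval from -0.47 to 2.30 (edgeR's quasi-likelihood test, adjusted p = 0.982). Without the larger summer library the difference was 0.62, and without the smaller one 1.27. Scaling to endothelial genes gave 1.18. CDH5 stayed above 0 under each of these settings, and its interval included 0 in the fit to all 4 libraries.

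PECAM1 encodes CD31, a molecule at the contacts between endothelial cells that is also found on platelets and leukocytes. It had 49.0 and 70.9 normalized reads in the larger and smaller winter libraries and 91.1 and 80.9 in the larger and smaller summer libraries. The groups did not overlap, with winter below summer and the larger winter library lowest. The summer mean was 1.43 times the winter mean, at 86.0 ± 7.18 against 59.95 ± 15.4 (SD, n = 2). The log2 fold change was -0.53 with a standard error of 0.38 and a 95% interval from -1.43 to 0.36 (edgeR's quasi-likelihood test, adjusted p = 0.982). Without the larger summer library it was -0.44, and without the larger winter library -0.28.

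The summed level of blood cell markers was also lowest in the larger winter library. The 6 tested markers of the 7 whose mean reached 10 summed to 206 and 323 normalized reads in the larger and smaller winter libraries and to 361 and 405 in the larger and smaller summer libraries. Of the 6 markers, only the globin gene HBB was itself lowest there, with 37.7 and 113 in winter and 118 and 119 in summer. The leukocyte marker PTPRC was lowest in the smaller summer library, at 92.8 and 117 in winter and 146 and 74.1 in summer. The part of blood cells in the PECAM1 values was not tested. Of 9 genes of the adherens junction and its catenins, 7 had a lower and 2 a higher winter mean, with a median log2 ratio of -0.12. The partners of highest mean were CTNNB1, which encodes beta-catenin, with 1157 in winter and 1258 in summer, and CTNNA1, which encodes alpha-catenin, with 796 and 1078.

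The efflux transporter genes ABCB1 and ABCG2 both had lower winter means. ABCB1 encodes P-glycoprotein, which pumps lipophilic compounds back into the blood. It had 90.6 and 144 normalized reads in the larger and smaller winter libraries and 182 and 157 in the larger and smaller summer libraries. The groups did not overlap, winter being the lower, but the smaller winter library was closer to the smaller summer library than to its own season's other value. The summer mean was 1.448 times the winter mean, at 170 ± 17.6 against 117 ± 37.7 (SD, n = 2). The log2 fold change was -0.54 with a standard error of 0.36 and a 95% interval from -1.39 to 0.30 (edgeR's quasi-likelihood test, adjusted p = 0.982). It was -0.43 without the larger summer library and -0.24 without the larger winter library.

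ABCB1 has a close relative, ABCB4. Alignments that were not unique stayed out of the counts. How many of them were common to both genes was not measured, so both levels are uncertain. ABCB4 overlapped between seasons, at 92.1 and 116 normalized reads in the larger and smaller winter libraries and 98.7 and 196 in the larger and smaller summer libraries. Its log2 fold change in the fit to all 4 libraries was -0.50, near that of ABCB1 in size, while its high summer library was the other one. Without the larger summer library the log2 fold change of ABCB4 was -0.91, against -0.43 for ABCB1.

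ABCG2 encodes the efflux pump known as breast cancer resistance protein. Its mean was 566 normalized reads in winter and 930 in summer, 1.64 times higher in summer, and 8.2% of all symbols had a log2 ratio at or below its -0.72. The winter mean had 3 solutions in whole reads and the summer mean 4. Across the 12 pairs the log2 fold change was close to -0.71 or -0.72, while both winter values lay below both summer values in 2 pairs and the groups overlapped in 10. The unadjusted p ran from 0.179 to 0.619 (edgeR's quasi-likelihood test). Whether the ABCG2 groups overlap thus cannot be read from the means.

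Of 12 further ABC transporter genes, 7 had a lower and 5 a higher winter mean, with a median log2 ratio of -0.09, and 0 of the 6 tested had an unadjusted p under 0.05 (edgeR's quasi-likelihood test). The median fitted log2 fold change of the 6 was -0.34, and -0.48 without the larger summer library. Both winter values lay below both summer values for 2 of the 6, against 17.2% of the symbols fitted. They lay above them for 1, against 13.3%. The 2 lower genes were ABCC4 and ABCC2, which encode efflux pumps of organic anions. ABCC4 had 57.3 and 63.5 normalized reads in the larger and smaller winter libraries and 90.0 and 88.9 in the larger and smaller summer libraries. ABCC2 had 38.5 and 44.4 in winter and 56.4 and 104 in summer, listed in the same order. Their log2 fold changes without the larger summer library were -0.56 and -1.32. These 2 genes were picked out after their values were seen. The genes of highest mean went opposite ways, ABCA2, a lipid transporter of myelinating cells, with 9574 in winter and 5161 in summer, and ABCC5 with 1478 and 1717.

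Of the carriers, SLC2A1 was at a similar mean in both seasons and MFSD2A had the lowest season ratio of the 9 genes. SLC2A1 encodes GLUT1, the glucose transporter of brain capillaries, which astrocytes also make. Its mean was 254 normalized reads in winter and 271 in summer, a log2 ratio of -0.09. The summer libraries held 243 and 299 normalized reads in the larger and smaller library. The winter mean had 2 solutions, 332 and 176 or 472 and 36.0 in the larger and smaller library, and the groups overlapped in both. The log2 fold change was -0.09 (95% interval from -1.03 to 0.85) or -0.08 (from -2.13 to 1.98), so that a 1.5-fold difference in either direction lay inside the interval of each solution.

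MFSD2A encodes the lysophosphatidylcholine carrier that brings docosahexaenoic acid into the brain and keeps transcytosis of the capillary wall low. It had 120 and 107 normalized reads in the larger and smaller winter libraries and 260 and 147 in the larger and smaller summer libraries. Each winter value lay below each summer value, and the larger summer library stood well above the other 3. The summer mean was 1.80 times the winter mean, at 204 ± 80.1 against 113 ± 9.31 (SD, n = 2), and 6.0% of all symbols had a log2 ratio at or below its -0.84. The fitted log2 fold change was -0.84 with a standard error of 0.38 and a 95% interval from -1.73 to 0.05. Its unadjusted p, 0.0608, was the smallest of the 6 genes (edgeR's quasi-likelihood test, adjusted p = 0.982).

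The MFSD2A difference depended on which summer library was kept. Without the larger one the log2 fold change was -0.37, and without the smaller one -1.20. In fits with 1 summer library, that library is assumed to vary as the winter libraries do, which were closer together.

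**Figure D3:**
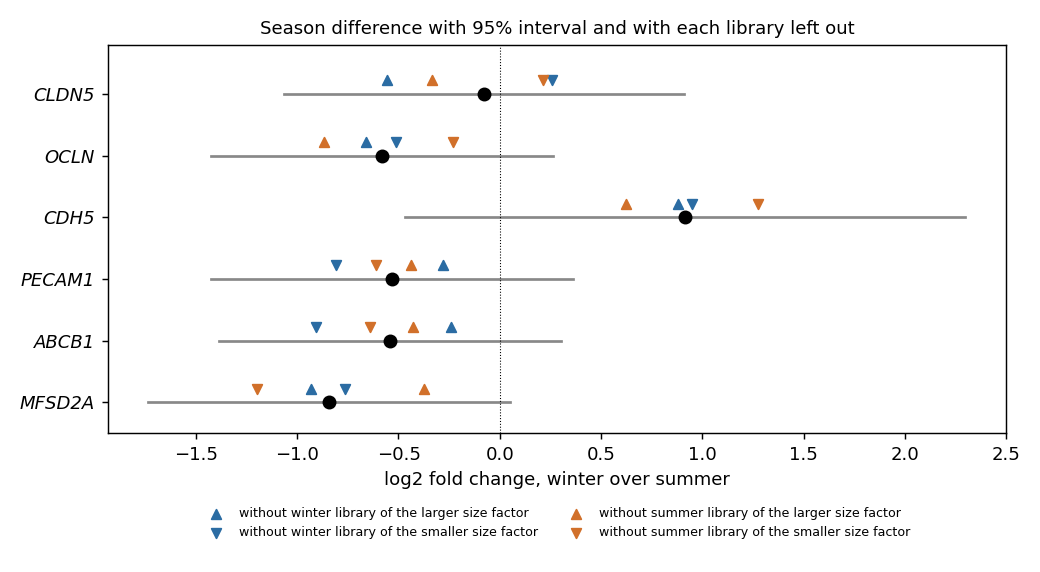
Log2 fold change, winter over summer, of the 6 barrier genes with a single solution (black points) with 95% intervals (grey lines), and the same value with each library left out (blue triangles for winter, orange for summer, pointing up for the library of the larger size factor and down for the smaller). All 6 intervals include 0, CLDN5 takes values on both sides of 0, and MFSD2A moves between -1.20 and -0.37 with the summer library that is left out.

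Other carriers and receptors of the brain capillary were mostly lower in winter by their means, but their median ratio was near that of all symbols. Of 23 whose mean reached 10 in summer or winter, 17 were lower and 6 higher, where 53.8% of all symbols were below 0. The median log2 ratio was -0.09, against -0.04 over all symbols. In edgeR's quasi-likelihood test 0 of the 11 tested had an unadjusted p under 0.05. Both winter values lay below both summer values for 2 of the 11 tested, against 17.2% of the symbols fitted. These were SLC19A3, a thiamine transporter, and FLVCR2, named here after their values were seen. SLC19A3 had 24.1 and 33.8 normalized reads in the larger and smaller winter libraries and 56.4 and 47.9 in the larger and smaller summer libraries. FLVCR2 had 9.06 and 9.52 in winter and 29.3 and 15.96 in summer, listed in the same order. With the larger summer library left out their log2 fold changes were -0.73 and -0.78, and 4 of the 11 tested genes were lower and 7 higher in winter. LRP1, a lipoprotein receptor, had 2751 in winter and 1834 in summer, and TFRC, the transferrin receptor, 462 and 563.

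Genes of leaky or fenestrated endothelium and of vesicular transport, the traffic that MFSD2A restrains, were lower in winter by their means in all 7 cases whose mean reached 10. Their median log2 ratio was -0.77. The groups lay apart, winter below summer, for 5 of them, against 17.2% of the symbols fitted. An unadjusted p under 0.05 was found for 1 (SDPR), against 1.99%, and an adjusted p under 0.05 for 0 (edgeR's quasi-likelihood test). Much of this came from the larger summer library, in which the 7 genes summed to 582 normalized reads, against 373 in the smaller summer library and 256 and 315 in the larger and smaller winter libraries. Without it the median fitted log2 fold change of the 7 went from -0.79 to -0.50. In that fit 6 were lower and 1 (CAV2) was higher in winter. SDPR, a caveolar coat gene, had 8.30 and 7.40 normalized reads in the larger and smaller winter libraries and 31.4 and 21.7 in the larger and smaller summer libraries. Its log2 fold change was -1.74 with a standard error of 0.74 (unadjusted p = 0.0487, adjusted p = 0.982, edgeR's quasi-likelihood test), and -1.44 without the larger summer library. CD34 had 50.6 and 79.3 in winter and 143 and 79.8 in summer, so that the smaller libraries of the seasons were almost level, and EHD4, a membrane-trafficking gene, 60.4 and 50.8 in winter and 136 and 78.6 in summer. PLVAP, which encodes the diaphragm protein of fenestrae, overlapped between seasons at 24.1 and 63.5 in winter and 40.1 and 65.0 in summer.

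**Figure D4:**
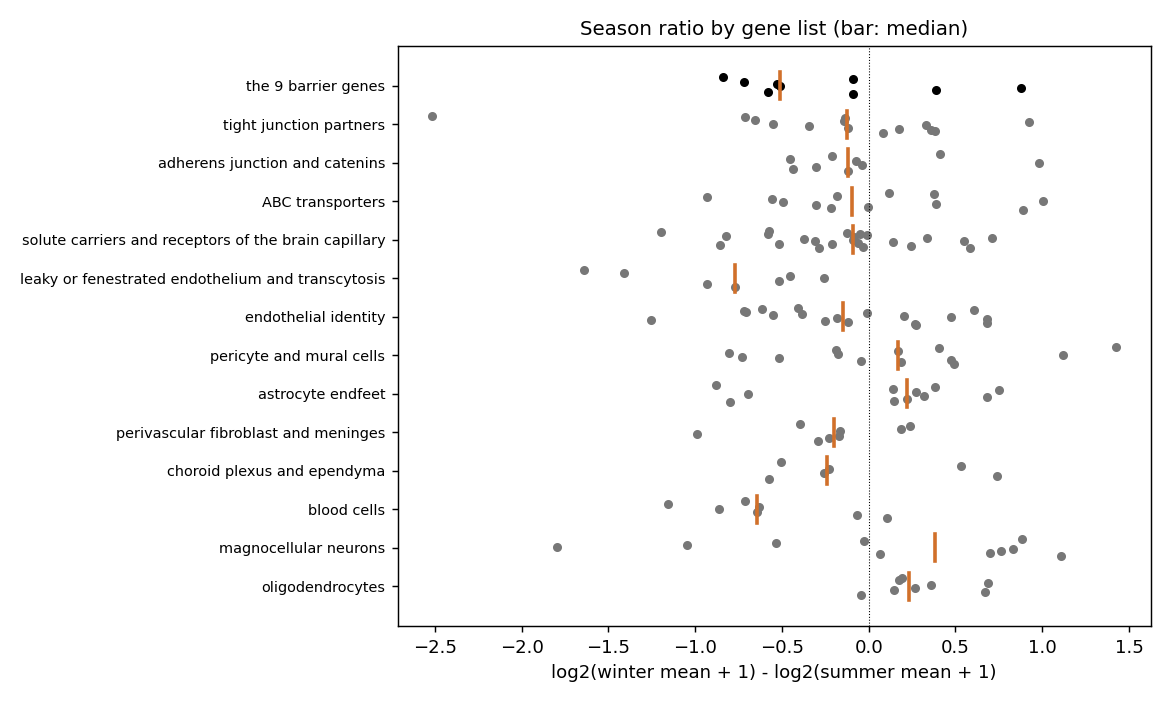
Season ratio, as log2 of the winter mean plus 1 minus log2 of the summer mean plus 1, for the 9 barrier genes (black) and for the genes of each further list (grey) whose mean reached 10 in summer or winter, with the median of each list as an orange bar. The medians run from -0.77 for genes of leaky endothelium and transcytosis to 0.38 for magnocellular neurone genes, with the barrier genes at -0.51 and the endothelial identity genes at -0.15.

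Endothelial genes in general differed in both directions by their means. Of 18 endothelial identity genes whose mean reached 10, 11 had a lower and 7 a higher winter mean, with a median log2 ratio of -0.15. Of the 12 tested, both winter values lay below both summer values for 3, against 17.2% of the symbols fitted. They lay above them for 3, against 13.3%. The median fitted log2 fold change of the 12 was -0.39. Without the larger summer library it was -0.10, with 7 genes lower and 5 higher in winter. KDR, the main receptor of vascular endothelial growth factor, had 106 and 131 normalized reads in the larger and smaller winter libraries and 327 and 239 in the larger and smaller summer libraries. Its log2 fold change was -1.26 with a standard error of 0.35 (unadjusted p = 0.00768, adjusted p = 0.982, edgeR's quasi-likelihood test), and -1.02 without the larger summer library. The other endothelial genes of highest mean, VWF and EGFL7, had higher winter means, 444 against 367 and 440 against 366.

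The summed level of the 12 endothelial identity genes was 556 and 544 normalized reads in the larger and smaller winter libraries and 827 and 675 in the larger and smaller summer libraries. KDR accounts for much of the gap between seasons. Without it the sums were 450 and 412 in winter and 499.9 and 435 in summer, and the seasons overlapped. The part of endothelial content in the season differences of the barrier genes was not tested. When the libraries were scaled so that the mean log2 level of these 12 genes was equal, a step chosen after the data were seen, all symbols shifted alike towards higher winter values. The log2 fold change was -0.57 for MFSD2A, -0.32 for OCLN, -0.26 for both PECAM1 and ABCB1, 0.18 for CLDN5 and 1.18 for CDH5. All 6 had an unadjusted p over 0.05 on this scale, with 0.0814 for CDH5 as the smallest (edgeR's quasi-likelihood test). The 12 genes do not include VWF, EGFL7, TIE1 and ROBO4, whose means were higher in winter, or FLT1 and FLI1, whose means were lower. The libraries of all these genes were not resolved. The scaling thus rests on 12 genes whose winter values were lower by 0.27 on average on the log2 scale.

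Ratios of reads between barrier genes within a library do not depend on its scaling. These were formed after the values were seen and carry no test. PECAM1 and ABCB1 kept close to a fixed ratio, with 0.542 and 0.493 reads of PECAM1 for each read of ABCB1 in the larger and smaller winter libraries and 0.5 and 0.514 in the larger and smaller summer libraries. CDH5 did not follow them. It had 0.769 and 0.507 reads for each read of PECAM1 in the larger and smaller winter libraries and 0.167 and 0.296 in the larger and smaller summer libraries. OCLN had 2.68 and 2.53 reads for each read of CDH5 in winter and 7.43 and 7.33 in summer.

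The ratio did not overlap between the seasons for 6 of the 15 pairs of genes. These were 5 of the 5 pairs with CDH5 and 1 of the 10 pairs without it. That single pair was CLDN5 with OCLN, at 0.978 and 0.616 reads of CLDN5 for each read of OCLN in winter and 0.596 and 0.558 in summer. The pairs of CDH5 with OCLN, PECAM1, ABCB1 and MFSD2A had to lie apart. Both winter values of CDH5 were above its summer values and those of the other genes named here were below. The count of these pairs thus restates those orders. How often such ratios lie apart over all pairs of symbols was not measured, so 6 of 15 cannot be read as an excess.

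**Figure D5:**
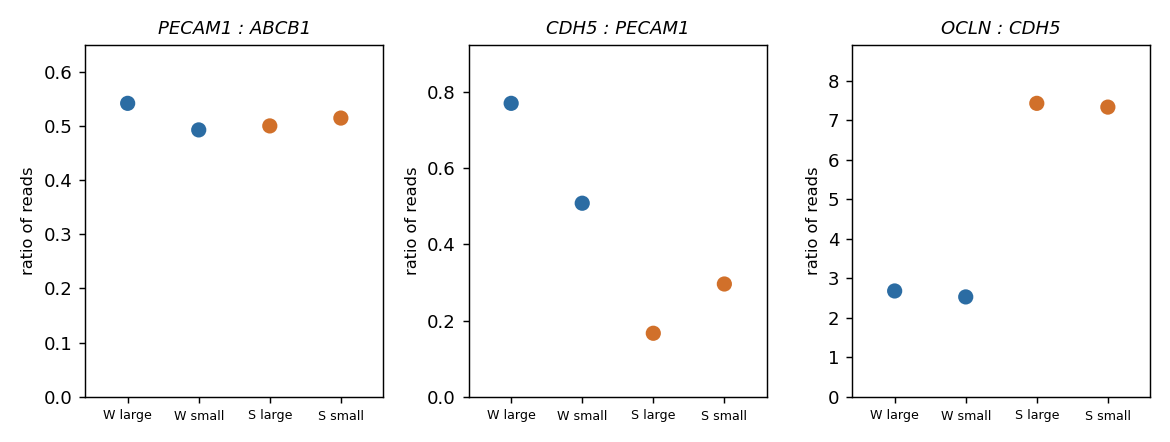
Ratio of reads between pairs of barrier genes in each library (W winter in blue, S summer in orange, large and small by size factor), for PECAM1 over ABCB1, CDH5 over PECAM1 and OCLN over CDH5. PECAM1 over ABCB1 stays between 0.493 and 0.542, while OCLN over CDH5 is 2.53 and 2.68 in winter and 7.33 and 7.43 in summer.

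Inside each season the barrier genes did not share an order of the libraries. In winter, CLDN5, OCLN, CDH5 and MFSD2A were higher in the larger library and PECAM1 and ABCB1 in the smaller. In summer, PECAM1, ABCB1 and MFSD2A were higher in the larger library and CLDN5, OCLN and CDH5 in the smaller. The genes whose pattern over the 4 libraries was most like that of CLDN5, by Pearson correlation of log2 normalized reads among 3636 genes, were HEYL (r = 0.999), RESP18 (0.999), KIF17 (0.999), AMOTL1 (0.998) and CCDC107 (0.998). With 4 libraries such values are common, and 133 genes had r over 0.95. Of the barrier genes measured in the same way, OCLN had r = 0.60 with CLDN5, MFSD2A -0.08, PECAM1 -0.41 and ABCB1 -0.49. These correlations share the same libraries and their scaling and are given as descriptions.

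Cells around the capillaries were followed through further lists. Of 13 genes of pericytes and mural cells, 6 had a lower and 7 a higher winter mean (median log2 ratio 0.17), with MCAM at 486 in winter and 345 in summer and CSPG4 at 217 and 191. Of 11 genes of astrocyte endfeet, 3 were lower and 8 higher (median 0.22), although GFAP, the gene of highest mean, had 14423 in winter and 25074 in summer. DTNA, of the dystrophin complex that anchors endfeet, had 953 and 859. Among 8 genes of perivascular fibroblasts and meninges, 6 were lower and 2 higher (median -0.20).

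The fibroblast gene COL1A2 was the list member with an unadjusted p under 0.05. It had 42.3 and 59.2 normalized reads in the larger and smaller winter libraries and 115 and 88.9 in the larger and smaller summer libraries. Its log2 fold change was -1.02 with a standard error of 0.39 (unadjusted p = 0.0321, adjusted p = 0.982, edgeR's quasi-likelihood test), and -0.81 without the larger summer library. The gene of highest mean besides, SLC6A13, a GABA transporter of the meninges, had 95.8 and 94.1 in winter and 101 and 132 in summer.

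Of 6 genes of choroid plexus and ependyma, 4 were lower and 2 higher in winter by their means (median log2 ratio -0.24), with FOLR1 at 83.9 in winter and 125 in summer and RSPH1 at 70.6 and 42.0. The larger summer library was low here, with a summed level of 133 against 361 in the smaller summer library and 254 and 199 in the larger and smaller winter libraries. Of 7 blood cell genes, 6 were lower and 1 higher (median -0.64). ALAS2, of erythroid haem synthesis, was the higher gene at 215 in winter and 199 in summer.

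Of 10 genes of magnocellular neurones, 4 were lower and 6 higher in winter by their means (median log2 ratio 0.38). The granin gene SCG2 had 1195 in winter and 554 in summer. The 5 tested genes of this list went the other way, with a median fitted log2 fold change of -0.49. It was -0.70 without the larger summer library. These 5 genes summed to 266 and 128 normalized reads in the larger and smaller winter libraries. In summer they summed to 305 and 340, listed in the same order. The opioid precursor gene PDYN had 63.4 and 8.46 normalized reads in the larger and smaller winter libraries and 128 and 127 in the larger and smaller summer libraries (log2 fold change -1.76, unadjusted p = 0.0337, adjusted p = 0.982, edgeR's quasi-likelihood test). Of 8 oligodendrocyte genes, 1 was lower and 7 higher (median 0.23), with the myelin gene MBP at 7277 in winter and 4571 in summer. None of the oligodendrocyte genes had a single solution. In each list with tested genes, 0 had an adjusted p under 0.05 in the fit to all 4 libraries (edgeR's quasi-likelihood test). This count does not extend to fits with a library left out. Without the larger summer library the log2 fold change of PDYN was -1.78. In that fit the tight junction partner MARVELD3 and the globin gene HBE1, both named after their values were seen, had -4.06 and -2.17. Their summer libraries were far apart, with 0 and 31.9 normalized reads of MARVELD3 in the larger and smaller library. For HBE1 they held 2.17 and 68.4, listed in the same order.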

How the data were processed

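Supraoptic nucleus RNA of 2 winter libraries, replicates 2 and 3 in the labels, and of 2 from summer, replicates 1 and 2, was analysed, grouped by season from the labels. Per the study's methods, the authors aligned reads with TopHat to their own dromedary assembly and counted them with HTSeq. The deposited count files hold raw read counts for 64989 gene models, unpaired with gene names, and were used here for depth only. The deposited table holds, for each symbol, a signal made by the authors (the mean over a season of counts divided by DESeq size factors, to 6 significant digits), an edgeR fold change (a ratio of winter to summer) and an edgeR p-value. The fold and p-value columns are the authors' own comparison and were not used. Versions were not given in the sources used here. HTSeq's tallies of reads outside gene models (46.4% to 55.2% of the tallied alignments) stayed out of the totals. Alignments that were not unique (20.2% to 26.9%) or were ambiguous (0.0338% to 0.0576%) stayed out too.

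Whole reads of each library were recovered from the means. The step that a read is worth was found in each season, and each mean was solved for a pair of whole numbers that return it to 6 significant digits. Of 16053 symbols with means, 4 rows sharing a symbol were left out, 16049 had solutions in both seasons (100%) and 9882 a single one in each. Single solutions are rarer at high means and favour low winter means: 58.5% of fitted log2 fold changes were negative and their median was -0.11. The 7641 single-solution symbols whose mean reached 10 in summer or winter were fitted with edgeR 4.0.16 in R 4.3.3 (size factors implied by the means, glmQLFit with legacy set to FALSE, glmQLFTest, Benjamini-Hochberg adjustment). SLC2A1 and ABCG2 were fitted once for each pair of solutions. Alternatives were other scalings, limma-voom (limma 3.58.1), DESeq2 1.42.0, edgeR's exact test, other filters and leaving out each library. The scripts were tested on simulated data. Figures were drawn with matplotlib.

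The members and gene lists, and the plan to recover reads, were chosen with earlier results of these data known. Named genes were the 9 members and, from each list, up to 4 genes with an unadjusted p under 0.05 and no overlap, the 2 of highest mean, and the 5 symbols most like CLDN5 among those with a mean of at least 50. Genes named outside this rule are marked in the text, or serve as markers. The values of 2 genes that the rule names are not reported here. List genes filed under older symbols (such as MLLT4 and PVRL2) were not counted, and CLDN11 and ESAM stand in 2 lists. Gene positions and sequences were not used here.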

Additional observations from a re-analysis of the deposited data

How the results depend on the processing

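The median log2 ratio of the 9 genes stayed between -0.54 and -0.48 over 2 other pseudocounts and 2 other scalings of the means. No paired analysis was possible because the winter and summer animals were different, having been slaughtered at El Oued and at Ouargla. Of 120 recomputed differences of single barrier genes, 115 were classed as unchanged. For differences of the season means, which carry no p, this meant a move smaller than a within-season standard deviation. For fitted differences it meant the same sign and the same side of an unadjusted p of 0.05. The fitted genes all began above 0.05, so this class also holds moves in size. MFSD2A, for example, went from -0.84 to -0.37 without the larger summer library. Of the rest, 4 changed sign (all CLDN5) and 1 kept its sign but changed side (MFSD2A without the smaller summer library). The number of symbols past the study's thresholds, 128, became 60 with DESeq2, 83 with limma-voom, 79 with a mean of at least 10 in both seasons, 66 with a fold threshold of 3 and 215 with endothelial scaling, which moved the median of all symbols from -0.11 to 0.15. It ran from 35 to 1159 with a library left out, being 35 without the larger and 50 without the smaller winter library, and 1105 and 1159 without the larger and smaller summer library. Symbols with an adjusted p under 0.05 numbered 0 in the quasi-likelihood fit (152 at an unadjusted p under 0.05), 1 each with edgeR's exact test and DESeq2 (both BLA, no barrier gene), and 0 to 258 with a library left out (258 without the larger and 226 without the smaller summer library). In those fits the lone library is assumed to vary like the other season's, and the cause of the higher counts was not tested. Depth limits CDH5 most, with 14 to 50 reads a library, and the 2 libraries a season limit the precision of every difference.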
